A study of Mus musculus with 36 samples.

Results

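The genes that write, copy and remove methyl groups on cytosine were followed across 18 mRNA libraries of mouse E14 embryonic stem cells (ESC) and of neural precursor cells (NPC) made from them with retinoic acid. There were 8 such genes, taken by name from the 51734 gene symbols of the count table: Dnmt1, Dnmt3a, Dnmt3b, Dnmt3l, Uhrf1, Tet1, Tet2 and Tet3. All 8 passed the filter on low counts and were among the 20511 genes tested. The libraries formed 6 groups of 3, with the genotypes WT, dCD and MLL2dTAG each present as ESC and as NPC. In dCD the histone methyltransferases MLL3 and MLL4 are catalytically dead, and in MLL2dTAG the related enzyme MLL2 carries a degron through which the compound dTAG-13 directs the protein to degradation. The labels give dTAG-13 at 2 µM for every library used, WT and ESC included, so the controls carry the compound too and no comparison isolates it. NPC received the compound from day 1 of their differentiation until the harvest on day 4, and no length of exposure is known here for ESC. ESC were grown with leukaemia inhibitory factor and serum replacement. Each genotype is a cell line of its own, so the edit and other differences between lines cannot be told apart. Replicates were not stated to be separate cultures, so p-values measure the spread between these libraries, which may be technical.

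In mammals the methyl mark sits mainly on cytosines followed by guanine (CpG). Dnmt1 copies the mark onto the new strand after DNA replication, and Uhrf1 recognises the half-copied site and brings Dnmt1 to it. Dnmt3a and Dnmt3b set new marks, and Dnmt3l, which has no catalytic activity of its own, binds and stimulates them and is known as a transcript of germ cells and pluripotent cells. The dioxygenases Tet1, Tet2 and Tet3 oxidise methylcytosine, after which the base is either lost as the strand is copied or cut out by DNA glycosylases. Methylation of histone H3 at lysine 4 (H3K4), the reaction of MLL2, MLL3 and MLL4, is known to repel the Dnmt3 enzymes. MLL2 also carries a CXXC domain that binds unmethylated CpG. DNA methylation itself was not measured in these libraries: the values below are mRNA levels.

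Library totals ran from 19.4 to 46 M counts (mega counts). WT replicate 2 of ESC stood apart from its group: its counts differed from those of the other two WT libraries with a chi-square of 10.5 and 8.38 per degree of freedom, against at most 4.43 in every other replicate pair. Results that use ESC WT were therefore also computed without it. The summed level of 6 pluripotency markers was 2422 to 2542 CPM in WT ESC, 2462 to 2559 CPM in dCD ESC and 3145 to 3237 CPM in MLL2dTAG ESC, where CPM is the read count over the library's TMM-scaled total in mega counts. All 6 were called higher in MLL2dTAG ESC than in WT (median log2 0.39), or 5 without WT replicate 2. The sum was 28.6 to 29.9 CPM in WT NPC, 40.6 to 41.3 CPM in dCD NPC and 151 to 152 CPM in MLL2dTAG NPC. In dCD NPC Klf4 was higher than in WT (0.92), Tfcp2l1 was lower (−0.23) and the other 4 were not called (median 0.03). The 5 neural precursor markers summed to 64.6 to 86.1 CPM over ESC, and to 139 to 140, 292 to 326 and 193 to 195 CPM in WT, dCD and MLL2dTAG NPC. Among these Sox1 stood at 3.10 CPM and Hes5 at 0.451 CPM in WT NPC, while Nes stood at 91.2 CPM and Pax6 at 38.9 CPM. In MLL2dTAG NPC Nes was higher than in WT (0.77) and Pax6 lower (−0.56). The 4 neuron markers summed to 354 to 435, 377 to 391 and 404 to 422 CPM in WT, dCD and MLL2dTAG ESC. Their NPC sums were lower, at 164 to 172, 273 to 293 and 165 to 169.7 CPM in the same order. From ESC to NPC in WT, Dcx (10.53) and Tubb3 (0.22) rose while Stmn2 (−3.67) and Elavl3 (−0.93) fell. The sum of this list is therefore no measure of neurons in these libraries. The 6 mesenchyme markers summed to 455 to 569, 713 to 797 and 795 to 849 CPM in WT, dCD and MLL2dTAG ESC. All 6 were called higher in both edited lines there (median 0.74 in each), with 5 in MLL2dTAG without WT replicate 2. In NPC they summed to 634 to 651, 820 to 906 and 916 to 924 CPM in WT, dCD and MLL2dTAG. Against WT NPC, 5 were higher and 0 lower in dCD, but 4 were higher and 2 lower in MLL2dTAG. In MLL2dTAG NPC Col1a2 (−2.85) and Col1a1 (−0.64) were lower, while Postn (1.94) and Col3a1 (1.28) were among the 4 that were higher. The 4 endoderm markers summed to 13.5 to 15.4, 9.81 to 10.7 and 26.3 to 29.2 CPM in the same order of ESC, and to 202 to 210, 175 to 182 and 492 to 506 CPM in the same order of NPC. Markers of a 2-cell-like state summed to 13.8 to 14.6 CPM in WT ESC, 83.2 to 88.6 CPM in dCD ESC and at most 0.0621 CPM in MLL2dTAG ESC, where Zscan4c and Zfp352 had no count. The part of these cell type differences in the results was not tested. Both edits act on proteins, so the mRNA levels of the edited genes do not check the labels, and a lower level in bulk libraries cannot tell fewer cells with a transcript from less of it per cell.

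RefSeq lists 15 start sites for the 8 genes. The CpG content of the 250 bases before each start differed widely between members. All 8 members were called between MLL2dTAG and WT in ESC. The 4 stretches below were chosen to show a range of CpG content among them, from 4 to 51 CG. They are written 5′ to 3′ on the gene's strand from RefSeq's GRCm38.p6 annotation, in lower case with every CG in capitals.
Dnmt3l, chr10:78049592-78049841, plus strand: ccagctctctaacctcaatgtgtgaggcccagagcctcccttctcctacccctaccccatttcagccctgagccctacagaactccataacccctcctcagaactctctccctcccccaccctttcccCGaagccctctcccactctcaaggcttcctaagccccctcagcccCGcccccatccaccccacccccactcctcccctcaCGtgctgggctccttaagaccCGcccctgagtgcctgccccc
Dnmt1, chr9:20952624-20952873, minus strand: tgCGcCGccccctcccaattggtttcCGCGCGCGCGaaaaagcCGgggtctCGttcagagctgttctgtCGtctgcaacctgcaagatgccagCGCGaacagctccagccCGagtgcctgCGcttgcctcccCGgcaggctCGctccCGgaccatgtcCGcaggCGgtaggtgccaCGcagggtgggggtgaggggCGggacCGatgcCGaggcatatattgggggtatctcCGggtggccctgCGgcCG
Dnmt3b, chr2:153649199-153649448, plus strand: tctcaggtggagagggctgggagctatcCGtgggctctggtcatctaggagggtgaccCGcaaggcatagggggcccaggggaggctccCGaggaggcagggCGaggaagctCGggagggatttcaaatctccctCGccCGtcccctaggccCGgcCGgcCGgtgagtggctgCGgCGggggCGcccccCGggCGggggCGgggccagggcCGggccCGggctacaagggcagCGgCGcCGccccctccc
Tet2, chr3:133544391-133544640, minus strand: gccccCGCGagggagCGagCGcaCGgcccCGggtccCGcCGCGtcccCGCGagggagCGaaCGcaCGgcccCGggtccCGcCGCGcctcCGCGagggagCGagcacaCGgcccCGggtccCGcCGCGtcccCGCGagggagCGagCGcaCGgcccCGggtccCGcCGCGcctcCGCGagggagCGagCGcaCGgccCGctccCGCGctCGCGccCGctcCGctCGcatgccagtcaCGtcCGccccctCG
The Dnmt3l stretch holds 4 CG, a number reached by 62.2% of all promoters, and the other 2 Dnmt3l starts hold 5 and 3. The Dnmt1 stretch holds 26, against 2 and 7 at the other 2 Dnmt1 starts. It lies downstream of both of these starts, so for transcripts that begin there it lies within the gene and not before it. Dnmt3b holds 21 and Tet2 holds 51, a number reached by 0.07% of the 32851 promoters of the table, whose median is 6. The remaining starts lie between these values, with 40, 38 and 15 at Dnmt3a, 30 and 10 at Uhrf1, 17 at Tet3 and 15 at Tet1. Counts per gene do not tell which start was used, and no binding or methylation at these sites was measured here.

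**Figure D1:**
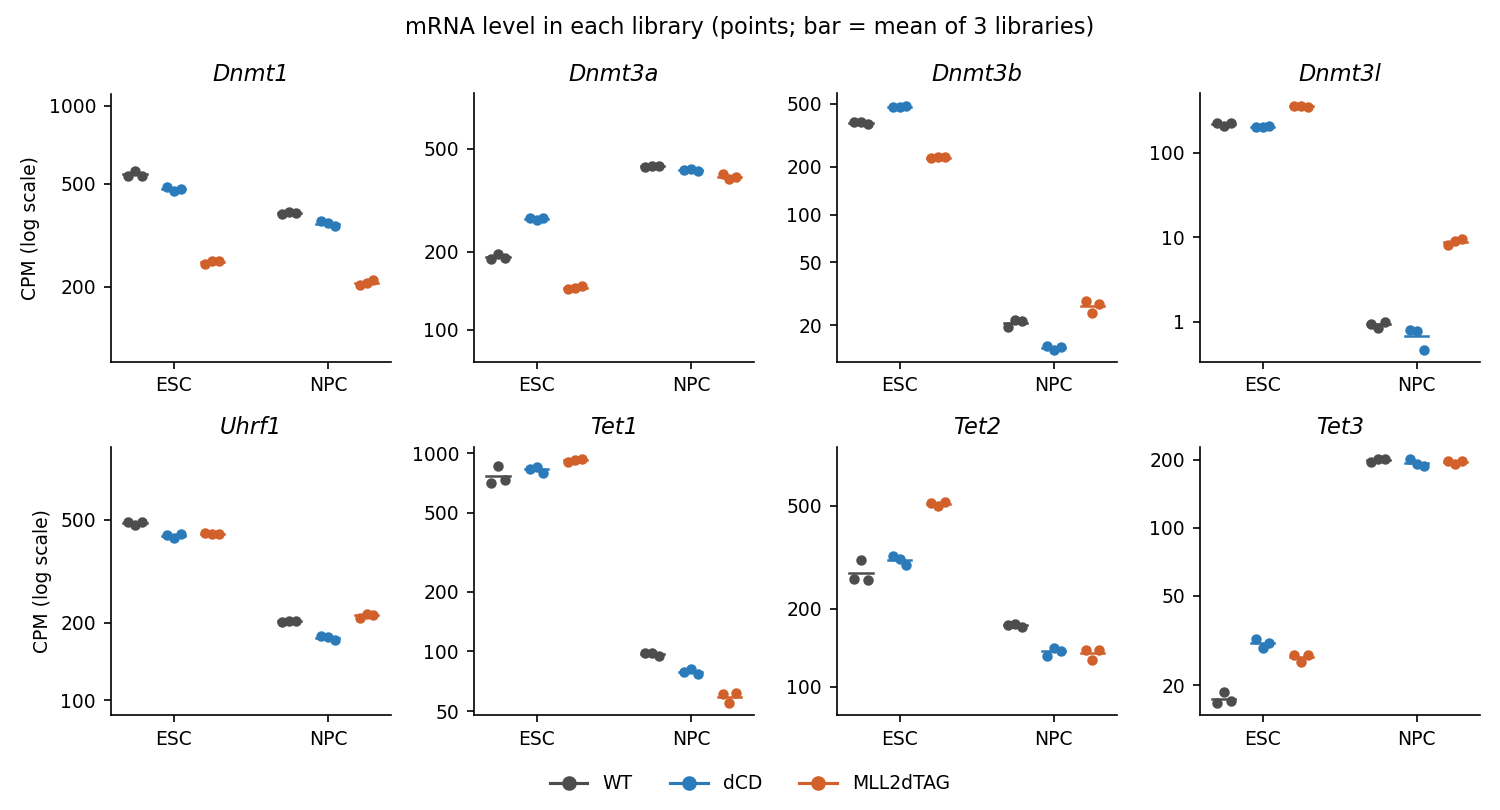
Level of each gene in every library, in CPM on a log axis whose range differs between panels. Points are libraries, bars are means of 3 libraries, and colours mark the line. Tet3 and Dnmt3a are higher in NPC than in ESC in all 3 lines, the other 6 genes are lower, and Dnmt1 is lowest in MLL2dTAG at both stages.

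Differentiation came with a wide shift of the set in WT. Dnmt3l, Dnmt3b and Tet1 fell to a small fraction of their ESC level, Tet3 rose 11.4-fold and Dnmt3a rose 2.24-fold. By the edgeR quasi-likelihood test with Benjamini-Hochberg adjustment over all genes, 2 of 8 members were higher and 6 lower in WT NPC than in WT ESC, and groups overlapped for none of them. This count says little about the set, because 79.5% of all tested genes passed the same test (39.1% higher and 40.4% lower) and 79.7% had groups without overlap. Of the members, 4 fell at least 2-fold and 2 rose at least 2-fold, where 21.2% and 22.5% of all tested genes did so. With offsets for GC content and length, 5 fell and 1 rose at least 2-fold, since Dnmt3a stood at 0.72 and Tet2 at −1.19.

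Dnmt1, the maintenance methyltransferase, was lower in MLL2dTAG than in both other lines at each stage. In ESC it stood at 535, 561 and 536 CPM in WT, at 486, 469 and 477 CPM in dCD, and at 245, 252 and 250 CPM in MLL2dTAG. The NPC libraries held 383, 388 and 384 CPM in WT, 359, 351 and 342 CPM in dCD, and 204, 207 and 211 CPM in MLL2dTAG. No group overlapped with another, and even MLL2dTAG ESC lay below every NPC library of WT and dCD. Against WT, Dnmt1 in MLL2dTAG fell by 54.2% in ESC (log2 fold change −1.13, SE 0.031, adjusted p = 7e-26, edgeR) and by 46.1% in NPC (−0.89, SE 0.031, adjusted p = 1.6e-23). In dCD it fell by 12.2% in ESC (−0.19, SE 0.031, adjusted p = 3.2e-06, edgeR) and by 8.88% in NPC (−0.13, SE 0.031, adjusted p = 0.00031). Across differentiation in WT it fell by 29.2% (−0.50, SE 0.031, adjusted p = 5.9e-17, edgeR), a value that became −0.81 with offsets for GC content and length.

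Uhrf1, which guides Dnmt1 to newly copied DNA, had another order of lines. In ESC it stood at 490, 478 and 487 CPM in WT, at 434, 424 and 441 CPM in dCD, and at 445, 439 and 441 CPM in MLL2dTAG. Its NPC levels were 202, 202 and 202 CPM in WT, 178, 176 and 171 CPM in dCD, and 209, 216 and 215 CPM in MLL2dTAG. The 2 edited lines overlapped in ESC and both lay below WT, while in NPC the dCD libraries were the lowest. Uhrf1 in dCD fell by 10.7% in ESC (log2 −0.16, SE 0.030, adjusted p = 2.1e-05, edgeR) and by 13.5% in NPC (−0.21, SE 0.031, adjusted p = 3.8e-07). MLL2dTAG differed from WT by −0.14 in ESC (SE 0.030, adjusted p = 0.00019, edgeR), a call lost without the filter on low counts (−0.08, adjusted p = 0.118). The NPC value was 0.08 (SE 0.030, adjusted p = 0.027, edgeR) and turned to −0.01 with upper-quartile scaling, so no direction can be given. From ESC to NPC Uhrf1 of WT fell by 58.4% (−1.26, SE 0.031, adjusted p = 3.2e-29, edgeR).

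The ratio of the maintenance pair needs no scaling between libraries. Per kilobase of exon, Dnmt1 was 0.653 ± 0.026 of Uhrf1 in WT ESC, 0.641 ± 0.011 in dCD ESC and 0.328 ± 0.0070 in MLL2dTAG ESC (SD, n = 3). The NPC ratios were 1.11 ± 0.0071 in WT, 1.17 ± 0.0061 in dCD and 0.566 ± 0.0075 in MLL2dTAG. The highest MLL2dTAG library lay below the lowest library of either other line at the same stage, at 0.334 against 0.629 in ESC and 0.573 against 1.11 in NPC. These ratios are given as a description with no test.

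**Figure D2:**
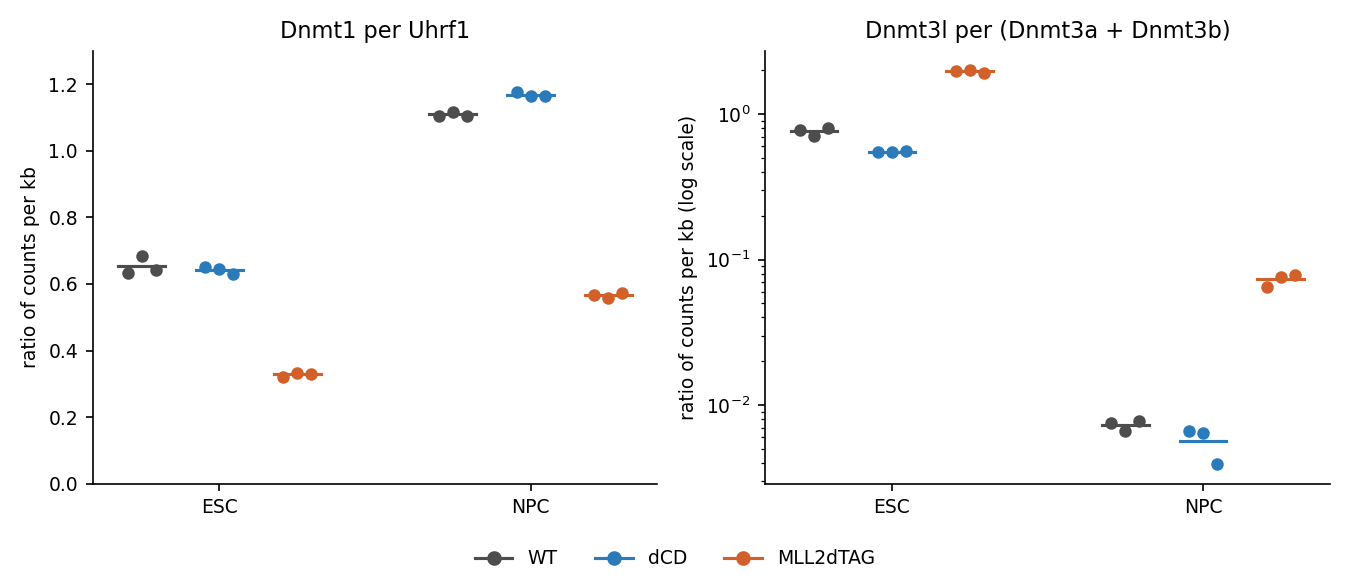
Ratio of Dnmt1 to Uhrf1 (left, linear axis) and of Dnmt3l to the sum of Dnmt3a and Dnmt3b (right, log axis), each from counts per kilobase of exon. Points are libraries and bars are means of 3. The left ratio is low in MLL2dTAG at both stages (0.328 and 0.566), and the right ratio is high in MLL2dTAG at both stages (1.97 and 0.0732).

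Dnmt3a, the de novo enzyme that remains in differentiated cells, was raised in dCD ESC and lowered in MLL2dTAG ESC. Its ESC levels were 188, 196 and 189 CPM in WT, 269, 265 and 271 CPM in dCD, and 143, 145 and 148 CPM in MLL2dTAG. In NPC it stood at 427, 428 and 429 CPM in WT, at 415, 418 and 411 CPM in dCD, and at 398, 384 and 390 CPM in MLL2dTAG. The ESC groups lay far apart, while the NPC groups lay close together without overlap. In ESC Dnmt3a rose by 40.5% in dCD (log2 0.49, SE 0.031, adjusted p = 2.8e-15, edgeR) and fell by 23.8% in MLL2dTAG (−0.39, SE 0.031, adjusted p = 4.1e-13). In NPC the dCD difference was −0.05 (SE 0.030, 95% interval −0.11 to 0.02, adjusted p = 0.2, edgeR), called only with offsets for GC content and length (−0.08, adjusted p = 0.0102). MLL2dTAG NPC were lower than WT by −0.13 (SE 0.030, adjusted p = 0.00023, edgeR), or −0.22 with upper-quartile scaling. In WT Dnmt3a rose by 1.16 from ESC to NPC (SE 0.031, adjusted p = 5.4e-28, edgeR), or by 0.72 with the GC and length offsets.

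Dnmt3b, the de novo enzyme of the early embryo, moved with Dnmt3a in ESC and apart from it in NPC. In ESC it stood at 383, 386 and 371 CPM in WT, at 478, 478 and 487 CPM in dCD, and at 227, 230 and 231 CPM in MLL2dTAG. Its NPC levels were 19.5, 21.5 and 21.3 CPM in WT, 14.7, 14.05 and 14.7 CPM in dCD, and 28.4, 24.0 and 27.4 CPM in MLL2dTAG. The order of the lines in ESC, dCD above WT above MLL2dTAG, was turned around in NPC, and no groups overlapped. In ESC Dnmt3b rose by 26.6% in dCD (log2 0.34, SE 0.038, adjusted p = 2.2e-09, edgeR) and fell by 39.7% in MLL2dTAG (−0.73, SE 0.038, adjusted p = 4.8e-18). In NPC it fell by 30.5% in dCD (−0.52, SE 0.057, adjusted p = 6.8e-10, edgeR) and rose by 27.3% in MLL2dTAG (0.35, SE 0.051, adjusted p = 3.1e-07). With differentiation Dnmt3b of WT fell by 94.5% (−4.19, SE 0.047, adjusted p = 2.7e-39, edgeR).

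Fgf5, Otx2 and Pou3f1 were read as markers of primed pluripotent cells. Only Fgf5 was called in the direction of Dnmt3a and Dnmt3b in both edited lines of ESC. Their summed level was 74.8 to 79.3 CPM in WT ESC, 80.1 to 89.8 CPM in dCD ESC and 44.3 to 47.8 CPM in MLL2dTAG ESC. By the edgeR test 2 of 3 were higher in dCD ESC, Pou3f1 by 1.06 and Fgf5 by 0.35, but only 1 without WT replicate 3. Otx2 was not called there. In MLL2dTAG ESC 2 of 3 were lower, Fgf5 by −2.15 and Otx2 by −0.80, and Pou3f1 was not called. In dCD NPC, where Dnmt3b was lower, Otx2 (1.56, SE 0.579) and Pou3f1 (1.28) were higher and Fgf5 (−0.47) was lower. In MLL2dTAG NPC, where Dnmt3b was higher, 2 were higher and 0 lower. The part of these marker differences in the Dnmt3a and Dnmt3b results was not tested.

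Dnmt3l, the cofactor without catalytic activity, had the largest change of the set between lines. The ESC libraries held 224, 207 and 226 CPM in WT, 201, 199.9 and 209 CPM in dCD, and 354, 361 and 351 CPM in MLL2dTAG. In NPC it stood at 0.950, 0.852 and 1.01 CPM in WT and at 0.798, 0.773 and 0.469 CPM in dCD, from 16 to 36 counts a library, and at 8.13, 9.03 and 9.52 CPM in MLL2dTAG, from 274 to 409 counts. MLL2dTAG libraries were above all others at the same stage. Against WT, Dnmt3l in MLL2dTAG rose by 62.4% in ESC (log2 0.70, SE 0.040, adjusted p = 4.9e-17, edgeR) and 9.52-fold in NPC (3.25, SE 0.116, adjusted p = 3.4e-23). The dCD difference in ESC was −0.11 (SE 0.041, adjusted p = 0.031, edgeR), with overlapping groups, and the call was lost in 7 of 26 alternatives. These were the fits without WT replicate 1 or 3, without dCD replicate 1 or 2, with RLE size factors, with no filter and with DESeq2. In dCD NPC it was −0.46 (SE 0.213, 95% interval −0.92 to 0.01, adjusted p = 0.074, edgeR). It ranged from −0.25 without dCD replicate 3 (adjusted p = 0.413, edgeR) to −0.58 without dCD replicate 1 (adjusted p = 0.0495). With differentiation Dnmt3l of WT fell by 99.6% (−7.87, SE 0.077, adjusted p = 6.3e-41, edgeR).

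Within the de novo group the shares per kilobase of exon changed mainly with stage. Dnmt3b made up 82.0% ± 0.285 of Dnmt3a plus Dnmt3b in WT ESC, 80.4% ± 0.145 in dCD ESC and 78.3% ± 0.152 in MLL2dTAG ESC (SD, n = 3). In NPC it made up 10.01% ± 0.484 in WT, 7.41% ± 0.222 in dCD and 13.5% ± 0.808 in MLL2dTAG. The summed level of both enzymes in ESC was 107 CPM per kilobase in WT, 138 in dCD and 67.7 in MLL2dTAG, and in NPC it was 48.0, 45.2 and 45.6. The ratio of Dnmt3l to the sum of Dnmt3a and Dnmt3b was 1.97 ± 0.040 in MLL2dTAG ESC, against 0.766 ± 0.050 in WT and 0.551 ± 0.0079 in dCD. It is a ratio of counts per kilobase of exon and not of transcript numbers. The NPC ratios were 0.00731 in WT, 0.00563 in dCD and 0.0732 in MLL2dTAG.

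Tet1, the main Tet transcript of ESC, was lower in NPC than in ESC in every line and lowest in MLL2dTAG NPC. In ESC it stood at 705, 859 and 731 CPM in WT, at 834, 855 and 794 CPM in dCD, and at 907, 922 and 935 CPM in MLL2dTAG. Its NPC levels were 97.6, 98.6 and 94.97 CPM in WT, 78.7, 81.2 and 76.6 CPM in dCD, and 61.2, 54.9 and 61.4 CPM in MLL2dTAG. WT replicate 2 was the highest WT library in ESC and the source of the overlap with dCD, while MLL2dTAG lay above both. In ESC Tet1 of MLL2dTAG rose by 20.4% against WT (log2 0.27, SE 0.046, adjusted p = 5e-06, edgeR), or by 0.36 without WT replicate 2. The ESC dCD difference was 0.11 (SE 0.046, adjusted p = 0.041, edgeR), and its call was lost in 6 of 26 alternatives. These were the fits without WT replicate 1 or 3, without dCD replicate 1 or 2, with upper-quartile scaling and with only the groups compared. The value ranged from 0.06 without WT replicate 1 (adjusted p = 0.297, edgeR) to 0.21 without WT replicate 2 (adjusted p = 1.5e-06). In NPC Tet1 fell by 18.7% in dCD (−0.30, SE 0.051, adjusted p = 4.9e-06, edgeR) and by 39.1% in MLL2dTAG (−0.72, SE 0.051, adjusted p = 1.5e-14). With differentiation Tet1 of WT fell by 87.3% (−2.98, SE 0.051, adjusted p = 6.6e-34, edgeR).

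Tet2, which lacks the CXXC domain of Tet1 and Tet3, was the Tet gene with the largest rise in MLL2dTAG ESC. The ESC libraries held 262, 308 and 259 CPM in WT, 320, 312 and 296 CPM in dCD, and 514, 498 and 517 CPM in MLL2dTAG. In NPC it stood at 174, 175 and 169.8 CPM in WT, at 132, 141 and 138 CPM in dCD, and at 138, 127 and 139 CPM in MLL2dTAG. MLL2dTAG was far above the other 2 lines in ESC, whereas in NPC both edited lines overlapped with each other below WT. Against WT, Tet2 in MLL2dTAG rose by 84.3% in ESC (log2 0.88, SE 0.046, adjusted p = 3.3e-18, edgeR) and fell by 21.99% in NPC (−0.36, SE 0.047, adjusted p = 2.9e-08). In dCD it differed by 0.16 in ESC (SE 0.046, adjusted p = 0.0038, edgeR) with overlapping groups, by 0.25 without WT replicate 2, and was not called without WT replicate 3 (0.12, adjusted p = 0.0552). In dCD NPC it fell by 20.7% (−0.33, SE 0.047, adjusted p = 1.7e-07, edgeR). With differentiation Tet2 of WT fell by 37.6% (−0.68, SE 0.047, adjusted p = 1.3e-15, edgeR), or −1.19 with the GC and length offsets.

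Tet3, known from oocytes and neural cells, was scarce in ESC and was raised there in both edited lines. In ESC it stood at 16.7, 18.6 and 17.0 CPM in WT, at 32.2, 29.2 and 30.8 CPM in dCD, and at 27.2, 25.5 and 27.2 CPM in MLL2dTAG. Its NPC levels were 195, 201 and 202 CPM in WT, 201, 192 and 187 CPM in dCD, and 197, 191 and 197 CPM in MLL2dTAG. The ESC groups did not overlap, and all 3 NPC groups did. In ESC Tet3 rose by 75.2% in dCD (log2 0.81, SE 0.056, adjusted p = 3.1e-14, edgeR) and by 51.8% in MLL2dTAG (0.60, SE 0.056, adjusted p = 1.4e-11). In NPC the dCD difference was −0.04 (95% interval −0.12 to 0.04, adjusted p = 0.37, edgeR). The MLL2dTAG difference was −0.03 (95% interval −0.11 to 0.05, adjusted p = 0.49, edgeR), and it was called with upper-quartile scaling (−0.12) and in a fit of only the groups compared (−0.08). With differentiation the WT level rose by 3.51 on the log2 scale (SE 0.049, adjusted p = 1.6e-36, edgeR).

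**Figure D3:**
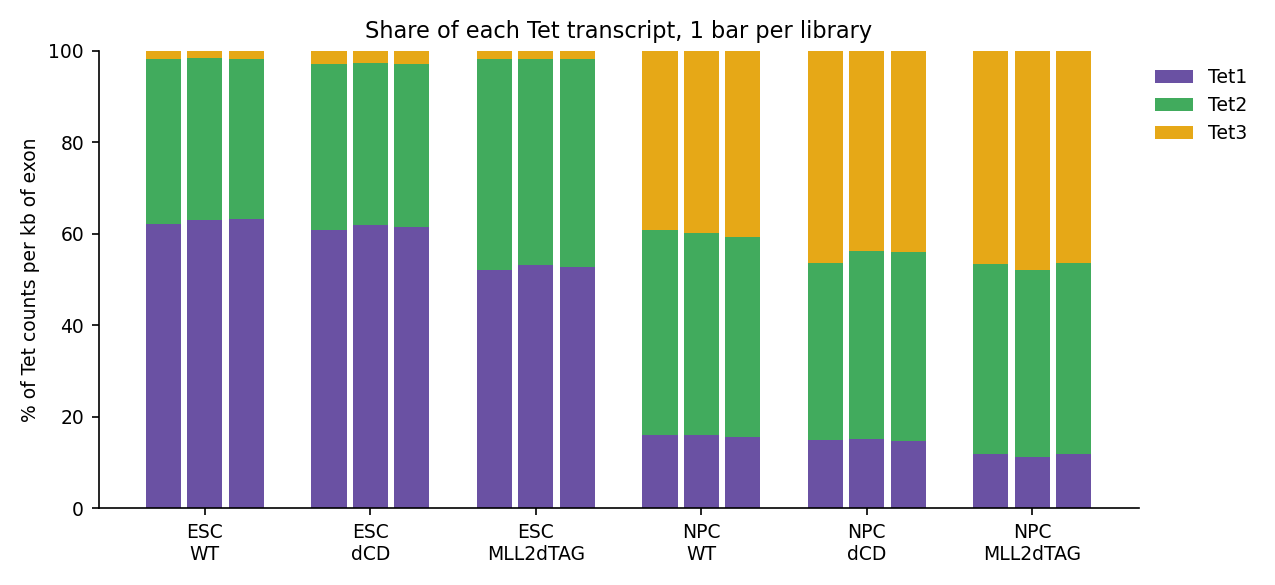
Share of Tet1, Tet2 and Tet3 in the sum of the 3, from counts per kilobase of exon, with 1 bar per library. Tet1 leads in ESC (62.8% in WT), Tet2 and Tet3 lead in NPC (44.2% and 39.9% in WT), and Tet1 is lower in MLL2dTAG than in WT at both stages (52.7% and 11.6%).

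The make-up of the Tet transcripts, again per kilobase of exon and free of scaling, turned over with differentiation. In WT, Tet1 made up 62.8% ± 0.575 in ESC and 15.9% ± 0.225 in NPC (SD, n = 3). Tet3 went from 1.76% ± 0.075 to 39.9% ± 0.703, and Tet2 from 35.4% ± 0.557 to 44.2% ± 0.486. MLL2dTAG ESC held a smaller Tet1 share (52.7% ± 0.615) and a larger Tet2 share (45.5% ± 0.563) than any WT or dCD library of that stage. In dCD ESC the Tet3 share was 2.79% ± 0.171, above every ESC library of the other lines. In NPC the Tet1 share was 14.9% ± 0.225 in dCD and 11.6% ± 0.314 in MLL2dTAG. The summed Tet level in ESC was 84.7 CPM per kilobase in WT, 93.8 in dCD and 122 in MLL2dTAG, and in NPC it was 42.5, 36.8 and 35.4. MLL2dTAG ESC therefore held the highest summed Tet level and the lowest summed Dnmt3a and Dnmt3b level of the 3 lines.

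**Figure D4:**
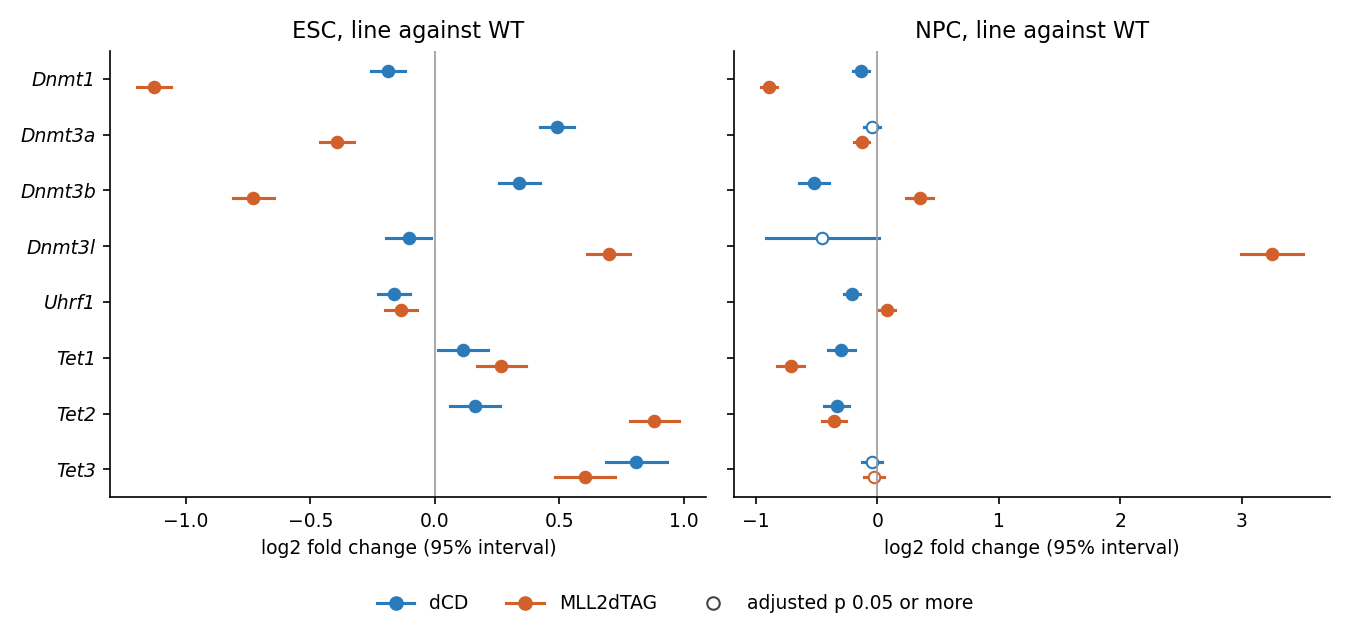
Log2 fold change of each gene against WT in ESC (left) and NPC (right), with 95% intervals from the edgeR fit. Open points have an adjusted p of 0.05 or more. In MLL2dTAG ESC the writers Dnmt1, Dnmt3a and Dnmt3b lie below 0 while Dnmt3l and the 3 Tet genes lie above it, and Dnmt3l in MLL2dTAG NPC lies farthest from 0 at 3.25.

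Counted by comparison, all 8 members passed the edgeR test in both ESC comparisons with WT. In dCD ESC 5 were higher and 3 lower, where 48.3% of all tested genes were called (25.7% higher and 22.6% lower). Groups overlapped for 3 of the 8 (Dnmt3l, Tet1 and Tet2), while 51.8% of all genes had no overlap. Without WT replicate 3 the number called dropped to 5, and without WT replicate 2 it was 8, as it was then in MLL2dTAG ESC and across differentiation in WT. In MLL2dTAG ESC 4 were higher and 4 lower, against 56.9% called among all genes (28.7% higher and 28.2% lower). That is 5889 genes higher and 5787 lower, or 5141 and 6493 with upper-quartile scaling. No member's groups overlapped, as for 59.7% of all genes. In dCD NPC none was higher, 5 were lower and 3 were not called (Dnmt3a, Dnmt3l and Tet3), against 53.5% of all genes called (26.7% higher and 26.8% lower). In MLL2dTAG NPC 3 were higher, 4 lower and Tet3 was not called, against 61.7% (33.3% higher and 28.4% lower). These are 6840 genes higher and 5825 lower, or 5610 and 6928 with upper-quartile scaling. The 3 higher members include Uhrf1, whose call was lost in 8 of 26 alternatives and whose sign turned in 1 more. The number of members called there was as low as 6, against 7. With so many genes called, these counts of members are no result about the set. Of all tested genes, 10.4% were called and at least 2-fold lower in MLL2dTAG ESC, as Dnmt1 was, and 7.71% were called and at least 2-fold higher in MLL2dTAG NPC, as Dnmt3l was. The comparisons of dCD and MLL2dTAG with WT share the WT libraries.

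The 2 edited lines were also compared with each other. WT levels do not enter this contrast, but the WT libraries share the estimate of spread, and 10182 genes were called in ESC without WT replicate 2, against 9672. In ESC 7 of 8 members differed (3 higher and 4 lower in MLL2dTAG), against 47.2% of all genes (23.4% higher and 23.7% lower). With upper-quartile scaling 3900 genes were higher and 5720 lower, against 4803 and 4869. Dnmt1 (log2 −0.94, SE 0.031, adjusted p = 1.7e-23), Dnmt3a (−0.88, SE 0.031, adjusted p = 9.8e-23) and Dnmt3b (−1.07, SE 0.038, adjusted p = 1.5e-22) were lower in MLL2dTAG than in dCD by the edgeR test. Dnmt3l (0.80, SE 0.040, adjusted p = 1.8e-18) and Tet2 (0.72, SE 0.046, adjusted p = 1.3e-15) were higher by the same edgeR test. Tet3 was lower by −0.21 (SE 0.051, adjusted p = 0.001, edgeR). Tet1 was higher by 0.16 (SE 0.046, adjusted p = 0.005, edgeR), a call lost with upper-quartile scaling (0.10, adjusted p = 0.09), and 0.24 with the GC and length offsets (adjusted p = 5.71e-11). Uhrf1 differed by 0.03 with an interval of −0.04 to 0.09 (adjusted p = 0.48, edgeR).

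In NPC 6 of 8 members differed between the edited lines (3 higher and 3 lower in MLL2dTAG), against 55.9% of all genes (31.6% higher and 24.3% lower). That is 6487 genes higher and 4986 lower, or 4945 and 6002 with upper-quartile scaling. Dnmt3l (log2 3.71, SE 0.125, adjusted p = 7.8e-24), Dnmt3b (0.87, SE 0.054, adjusted p = 4.1e-16) and Uhrf1 (0.29, SE 0.031, adjusted p = 4.5e-10) were higher in MLL2dTAG by the edgeR test. Dnmt1 (−0.76, SE 0.031, adjusted p = 2.2e-21) and Tet1 (−0.42, SE 0.052, adjusted p = 1.4e-08) were lower. Dnmt3a was lower by −0.09 (SE 0.030, adjusted p = 0.014, edgeR), a call lost without MLL2dTAG replicate 2 (−0.07, adjusted p = 0.0737). It was −0.17 with upper-quartile scaling and −0.14 both with no filter on low counts and in a fit of only the groups compared. Tet2 differed by −0.02 (interval −0.13 to 0.08, adjusted p = 0.7, edgeR) and Tet3 by 0.01 (interval −0.07 to 0.09, adjusted p = 0.83), and the sign of both depended on the setting.

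The change of a line against WT was then compared between the stages, as the value in NPC minus the value in ESC. For dCD this passed for 5 of 8 members, all with a more negative change in NPC, against 42.9% of all genes (20.0% positive and 22.9% negative). They were Dnmt3b (−0.86, SE 0.068), Tet3 (−0.85, SE 0.068), Dnmt3a (−0.54, SE 0.043), Tet2 (−0.50, SE 0.066) and Tet1 (−0.41, SE 0.068), with edgeR adjusted p from 8e-13 to 5.6e-06. Dnmt1 (0.05, interval −0.04 to 0.15), Uhrf1 (−0.05, interval −0.14 to 0.05) and Dnmt3l (−0.35, interval −0.82 to 0.12) did not pass. The Dnmt3l value ranged from −0.14 without dCD NPC replicate 3 to −0.47 without dCD NPC replicate 1. For MLL2dTAG it passed for all 8, against 49.0% of all genes (26.4% positive and 22.6% negative). The difference was positive for Dnmt3l (2.55, SE 0.129), Dnmt3b (1.08, SE 0.064), Dnmt3a (0.26, SE 0.043), Dnmt1 (0.23, SE 0.044) and Uhrf1 (0.21, SE 0.043). It was negative for the 3 Tet genes: Tet2 (−1.24, SE 0.065), Tet1 (−0.98, SE 0.069) and Tet3 (−0.63, SE 0.067). The MLL2dTAG values had edgeR adjusted p from 3.3e-18 to 7e-05. Without the filter on low counts the Uhrf1 call was lost (0.11, adjusted p = 0.109, edgeR), and Dnmt1 stood at 0.14 (adjusted p = 0.0394) and Dnmt3a at 0.16 (adjusted p = 0.0115).

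**Figure D5:**
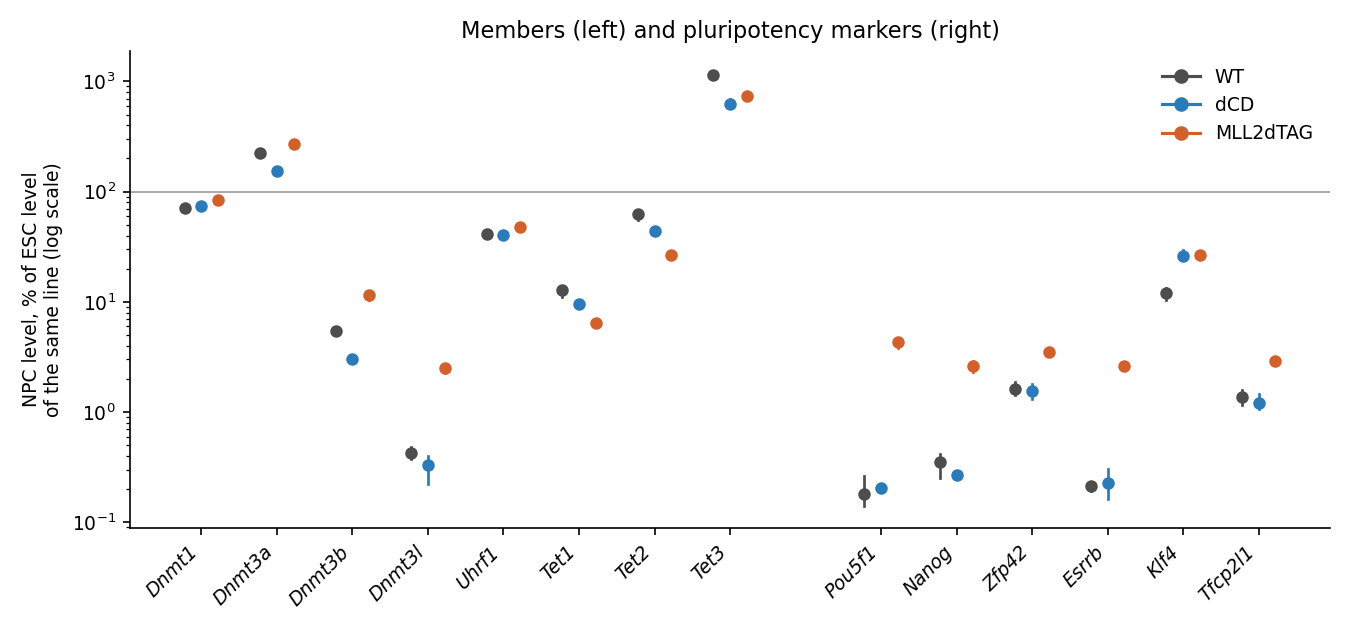
NPC level as a percentage of the ESC level of the same line, on a log axis, for the 8 genes and 6 pluripotency markers. Points are ratios of group means, and lines run from the lowest NPC over the highest ESC library to the highest NPC over the lowest ESC library. Dnmt3l in MLL2dTAG (2.502%) lies with Nanog (2.64%) and Esrrb (2.63%), while Tet1 in MLL2dTAG (6.42%) lies below Tet1 in WT (12.7%).

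Expressed as NPC level over ESC level of the same line, the transcripts typical of ESC did not all behave alike in MLL2dTAG. Dnmt3l kept 0.427% of its ESC level in WT NPC, 0.334% in dCD NPC and 2.502% in MLL2dTAG NPC. Pluripotency factors were higher there too: Pou5f1 kept 0.182%, 0.204% and 4.35%, Nanog 0.352%, 0.271% and 2.64%. Dnmt3b kept 5.46%, 3.01% and 11.6% in the same order. Tet1 went the other way, with 12.7% in WT, 9.53% in dCD and 6.42% in MLL2dTAG, and so did Tet2, with 62.5%, 44.3% and 26.4%. The summed pluripotency markers of NPC differ between the lines as given above, and their part in the Dnmt3l and Dnmt3b differences was not tested.

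Among the other genes of the pathway, 18 partners of maintenance and chromatin targeting were all tested. In WT 5 rose and 11 fell from ESC to NPC (median log2 −0.68, against −0.04 over all genes), with Hells, a remodeller that opens chromatin for Dnmt1, at −1.83 (adjusted p = 2e-32, edgeR) and Usp7, a deubiquitinase that binds Dnmt1, at −1.36 (adjusted p = 4.1e-29). In MLL2dTAG ESC 6 were higher and 7 lower (median −0.03, against −0.001). Uhrf2, the paralog of Uhrf1, was lower there by −1.14 (SE 0.040, adjusted p = 4.7e-23, edgeR), at 59.7 ± 1.8 CPM against 132 ± 2.7 CPM in WT (SD, n = 3). Zfp57, a zinc finger protein that keeps imprints methylated, was higher by 0.96 (SE 0.034, adjusted p = 6.6e-23, edgeR). Dppa3, which keeps Uhrf1 away from chromatin, was lower in ESC of dCD by −1.33 and of MLL2dTAG by −1.28 (adjusted p = 3e-09 and 2e-09, edgeR). In dCD NPC 3 partners were higher and 11 lower (median −0.19, against −0.02), led by Cdca7, which recruits Hells, at −0.63 (adjusted p = 5.8e-16, edgeR). In dCD ESC 6 were higher and 3 lower (median 0.05, against 0.02). In MLL2dTAG NPC 9 were higher and 4 lower (median 0.04, or 0.01 with Dppa3, which has no count in NPC, at its bound, against 0.03), but 3 and 8 with upper-quartile scaling, and 7 were lower without ESC WT replicate 2.

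Of 7 genes listed as readers of methylated CpG, Mbd3 among them, more were called higher than lower in each comparison of an edited line with WT. Over all tested genes 25.7% to 33.3% were called higher and 22.6% to 28.4% lower in these comparisons. The counts are therefore only a description, here and for the other lists. In WT 5 rose and 1 fell from ESC to NPC (median log2 1.52, against −0.04 over all genes), with Mbd1 at 1.94 (adjusted p = 9.3e-25, edgeR). In ESC 6 were higher and 0 lower in dCD (median 0.46, against 0.02), and 5 were higher and 0 lower in MLL2dTAG (median 0.39, against −0.001), where 1 was lower with upper-quartile scaling. The transcription factor Zbtb4 had the largest rise of these in MLL2dTAG ESC, 1.16 (adjusted p = 1.8e-12, edgeR). In NPC 6 were higher and 1 lower in dCD (median 0.38, against −0.02), and 4 were higher and 2 lower in MLL2dTAG (median 0.26, against 0.03), Mbd1 being lower there by −0.56 (adjusted p = 6.6e-11, edgeR).

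Of 17 genes of base excision and Tet cofactors, 7 rose and 9 fell from ESC to NPC in WT (median log2 −0.10, against −0.04 over all genes). Cxxc4, which binds Tet2 and lowers its protein level, rose by 6.98 (adjusted p = 4.9e-30, edgeR), from 0.371 to 48.7 CPM. Smug1, a uracil glycosylase, rose by 2.5 (adjusted p = 6.3e-34, edgeR). In ESC 3 were higher and 9 lower in dCD (median −0.12, against 0.02), and 5 higher and 7 lower in MLL2dTAG (median 0.03, against −0.001). In NPC 3 were higher and 10 lower in dCD (median −0.18, against −0.02), and 4 higher and 9 lower in MLL2dTAG (median −0.11, against 0.03). The DNA glycosylase Neil3 was lower in all 4 comparisons with WT by the edgeR test, by −0.68 in dCD ESC (adjusted p = 8.8e-09), −1.61 in MLL2dTAG ESC (5.2e-18), −0.64 in dCD NPC (1.7e-09) and −2.56 in MLL2dTAG NPC (3.1e-24).

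The methyl donor cycle was covered by 10 genes. Mat2a, which makes S-adenosylmethionine, was higher in every comparison with WT by the edgeR test, by 0.77 in dCD ESC (adjusted p = 1.4e-19), 0.49 in MLL2dTAG ESC (5.8e-15), 0.58 in dCD NPC (6.7e-17) and 0.81 in MLL2dTAG NPC (2.3e-21). Of the 10, 3 were higher and 2 lower in dCD ESC (median log2 0.06, against 0.02 over all genes), and 3 and 4 in MLL2dTAG ESC (median −0.03, against −0.001). In dCD NPC 2 were higher and 5 lower (median −0.13, against −0.02), and in MLL2dTAG NPC 7 and 2 (median 0.25, against 0.03). From ESC to NPC in WT 2 rose and 7 fell (median −0.52, against −0.04), the folate enzyme Mthfd1 by −2.10 (adjusted p = 3.5e-34, edgeR).

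A list of 14 germline genes whose promoters are known to be methylated was read in the same libraries. It also holds Zfp42, which is among the pluripotency markers. In MLL2dTAG ESC, Dnmt1, Dnmt3a and Dnmt3b were lower than in WT. Of the 14 genes 2 were higher there and 9 lower, or 8 lower without WT replicate 2. Over all genes 28.7% were called higher and 28.2% lower. The median log2 was −1.50, against −0.001 over all genes, and the same with Asz1, which has no count there, at its bound. The RNA helicase Ddx4 stood at 3.86 ± 1.1 CPM there against 33.3 ± 1.2 CPM in WT (SD, n = 3), a difference of −3.11 (adjusted p = 6.1e-24, edgeR). The meiotic axis gene Sycp3 was lower by −2.66 and Mael, a piRNA pathway gene, by −2.57 (adjusted p = 1.5e-19 and 3.2e-20, edgeR). In dCD ESC 7 were higher and 3 lower (median 0.23, against 0.02), or 5 and 2 without WT replicate 2. Over all genes 25.7% were called higher and 22.6% lower there. In NPC 9 were higher and 1 lower in dCD (median 0.85, against −0.02), and 8 were higher and 6 lower in MLL2dTAG (median 0.72, against 0.03). Over all genes the shares higher and lower were 26.7% and 26.8% in dCD NPC, and 33.3% and 28.4% in MLL2dTAG NPC. Dazl, an RNA-binding protein of germ cells, was higher in MLL2dTAG NPC by 2.64 (adjusted p = 2.8e-21, edgeR), while Ddx4 was lower by −2.24 (adjusted p = 2.6e-19). The relation of these levels to methylation was not tested. From ESC to NPC in WT 3 rose and 10 fell (median −1.80, against −0.04), or 11 fell without ESC WT replicate 2. Over all genes 39.1% were called higher and 40.4% lower.

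Genes with the pattern most like each member were found as those with the smallest root mean square difference of centred log2 CPM over the 18 libraries, among 11797 candidates. The closest was Tom1l1 for Dnmt1 (0.0969), Adgra3 for Dnmt3a (0.130), Ephx2 for Dnmt3b (0.308) and Samm50 for Uhrf1 (0.0575), with the replication helicase gene Mcm3 next to Uhrf1 at 0.0594. Dnmt3l was closest to Nanog (0.299), Prdm14 (0.321) and Esrrb (0.438), all genes of pluripotent cells. Tet1 was closest to Ttc39b (0.222), Tet2 to Ccdc160 (0.125) and Tet3 to Zfp319 (0.125). These differences are in log2 units, are descriptions over libraries that share stage and line, and carry no test.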

How the data were processed

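The deposited values are unnormalised read counts for each gene symbol, per the file headers and values, from libraries made with the TruSeq Stranded mRNA kit, per the labels' protocols. HTSeq is named in the submitters' processing notes, and the aligner, genome build and strand setting are not given in the sources used here. Low counts were more often even than odd (60.8% to 66.5% of counts from 1 to 10), so halved counts were an alternative. Columns were matched to samples by name: 18 were used, and 6 further columns of the same table and 12 of another, whose names match no sample alone, were not used here.

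Counts were fitted in R 4.3.3 with edgeR 4.0.16: filterByExpr by group (20511 genes), TMM factors (0.967 to 1.05), 1 mean per group over all 18 libraries, 12 residual degrees of freedom, quasi-likelihood F test, two-sided, Benjamini-Hochberg adjustment over all tested genes, called under 0.05. The biological coefficient of variation was 4.01%. The procedure was tested on simulated data. Levels per kilobase used the joined length of all exons of a gene's basic transcripts in GENCODE M21. Shares and ratios per kilobase can therefore also move with the isoforms in use, which were not resolved. Alternatives were other scaling, no filter, fewer libraries, a replicate block, DESeq2 1.42.0, halved counts and, added after seeing the data, GC and length offsets (96% of tested genes had both). All members are named. Other genes come from 5 pathway lists, and those named are among the 4 largest called changes per list and comparison at 1 CPM or more. Markers come from lists of cell types. Results of 1 list gene are not reported here by name. The members and lists were chosen with earlier results of these data known. Counts are reads, not independent molecules.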

Additional observations from a re-analysis of the deposited data

Results flagged for a closer look

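The change of a line against WT differed between NPC and ESC for 13 of the 16 combinations of member and line, by the edgeR quasi-likelihood test of the difference itself. Values are the log2 change in NPC minus that in ESC. For dCD they were −0.54 for Dnmt3a, −0.86 for Dnmt3b, −0.41 for Tet1, −0.50 for Tet2 and −0.85 for Tet3. For MLL2dTAG they were 0.23 for Dnmt1, 0.26 for Dnmt3a, 1.08 for Dnmt3b, 2.55 for Dnmt3l, 0.21 for Uhrf1, −0.98 for Tet1, −1.24 for Tet2 and −0.63 for Tet3. Among all tested genes 42.9% passed this test for dCD and 49.0% for MLL2dTAG. Dnmt3b, Tet1 and Tet2 were called with opposite signs at both stages in each edited line, with the ESC calls of Tet1 and Tet2 in dCD lost under some alternatives.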

How the results depend on the processing

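Of 72 member comparisons, 57 kept direction and call in all 26 alternatives, 15 changed a call or a sign in at least 1, and 5 of these changed sign. Among the 26, 18 leave out 1 library each, often from a group outside the comparison. Such a library enters only through the filter, the scaling and the shared spread. Uhrf1 in MLL2dTAG against WT in NPC went to −0.014 with upper-quartile scaling. Uhrf1 in MLL2dTAG against dCD in ESC went to −0.026 with upper-quartile scaling and −0.038 with GC and length offsets. In MLL2dTAG against dCD in NPC, Tet2 (−0.02 with all libraries) ranged from −0.049 to 0.017 when 1 library was left out, the latter without MLL2dTAG replicate 2, and was 0.041 with the offsets. Tet3 went to −0.0044 with RLE size factors, −0.071 with upper-quartile factors, −0.047 with no filter, −0.046 with only the groups compared, −0.013 to 0.041 when 1 library was left out (the former without dCD replicate 3) and −0.0045 with DESeq2. The dCD difference between stages of Dnmt1 went to −0.020 with the offsets. The cause was not tested. The number of members called in dCD against WT in ESC ranged from 5 to 8 when 1 library was left out, with 5 without WT replicate 3. Counts of all genes called stayed within 1.5 times in every comparison. Among partner genes, dCD ESC had 5 lower without WT replicate 2, against 3 with all libraries. Partners lower in MLL2dTAG NPC numbered 8 with upper-quartile scaling, against 4, and partners higher 3, against 9. Donor genes lower in MLL2dTAG ESC numbered 2 with no filter, against 4. Germline genes lower in dCD NPC numbered 2 with halved counts, against 1. From ESC to NPC in WT, 3 partners were higher with the offsets, against 5, 5 excision genes were lower with no filter, against 9, and 2 readers were lower with upper-quartile scaling, against 1. Readers lower in dCD NPC numbered 0 with no filter, against 1. Libraries of the same replicate number did not deviate together (correlations −0.028 to 0.032 over 45 pairs), and a replicate block changed 0 member calls, with 9761 genes called in dCD against WT in ESC, against 9909. Depth limits Dnmt3l in NPC, where WT and dCD libraries hold 16 to 36 counts.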
